A study of Homo sapiens with 6 samples.

Results

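The messenger RNAs of 10 regulators of the G1 phase of the cell cycle were followed across 6 libraries of DLD-1, an established human epithelial colorectal cancer cell line. They were chosen by symbol and found in the deposited count table through their Ensembl identifiers, as 10 of its 27264 gene rows. They comprise 4 inhibitors of cyclin-dependent kinases (CDKN1A, CDKN1B, CDKN2B and CDKN2C), 3 cyclins (CCND1, CCND3 and CCNE1) and 3 kinases (CDK2, CDK4 and CDK6). The series is titled for EMT, the epithelial-to-mesenchymal transition, mediated by ZEB2, which encodes a zinc finger repressor of epithelial genes. All libraries are titled ZEB2 WT and come from 3 clones of DLD-1, WT2, WT5 and WT37. The sample descriptions add the name TR21 to DLD-1 for all 6 libraries, and the labels do not say what it stands for. Each clone was grown without DOX, where the labels call the cells epithelial, and with DOX, where the labels call them mesenchymal. DOX usually stands for doxycycline, and no dose or time is given for it in the sources used here. Each group therefore holds 3 libraries, 1 per clone, and values by library are always listed in the order WT2, WT5, WT37. Since all 6 titles name ZEB2 WT, an effect of DOX itself cannot be told apart from that of the ZEB2 construct.

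A cell passes from G1 into DNA replication when D cyclins bound to CDK4 or CDK6, and then cyclin E bound to CDK2, phosphorylate the retinoblastoma protein and release E2F transcription factors. The INK4 proteins, here CDKN2B (p15) and CDKN2C (p18), bind CDK4 and CDK6 and keep D cyclins from activating them. The CIP/KIP proteins, here CDKN1A (p21) and CDKN1B (p27), bind cyclin-kinase complexes and inhibit CDK2 above all. ZEB proteins bind E-boxes with the letters CACCTG, and cyclin D1 and p15 are textbook targets of mitogen and TGF-beta signals, the signals most often tied to EMT.

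RefSeq promoter windows of 300 bases (250 before and 50 after a transcript start, GRCh38.p14) were at hand for 8 of the 10 genes, in 13 windows, and not for CCND1 and CDK2. The letters CACCTG, searched on both strands, were found in 1 of the 13 windows, an upstream start of CCND3, and in 20.6% of all 35116 promoter windows. That window is shown because it is the 1 window with the ZEB E-box, and the window of CDK6 because CDK6 is the member that differed among the clones. Capitals mark the E-box in CCND3 (chr6:42048639-42048938, minus strand, E-box starting 237 bases before the transcript start) and the GC boxes (GGGCGG on either strand) in CDK6 (chr7:92836524-92836823, minus strand). GC boxes, found 3 times in this CDK6 window, are the letters that Sp1-type factors bind, and 45% of all windows hold at least 1. Each window is marked for 1 motif only, and a match describes letters only.
CCND3 promoter: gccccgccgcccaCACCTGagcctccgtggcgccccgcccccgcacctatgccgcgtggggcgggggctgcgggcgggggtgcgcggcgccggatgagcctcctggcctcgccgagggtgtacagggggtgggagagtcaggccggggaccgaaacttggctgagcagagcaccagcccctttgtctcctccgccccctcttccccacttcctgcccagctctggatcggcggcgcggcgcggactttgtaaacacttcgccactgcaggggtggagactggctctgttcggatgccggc
CDK6 promoter: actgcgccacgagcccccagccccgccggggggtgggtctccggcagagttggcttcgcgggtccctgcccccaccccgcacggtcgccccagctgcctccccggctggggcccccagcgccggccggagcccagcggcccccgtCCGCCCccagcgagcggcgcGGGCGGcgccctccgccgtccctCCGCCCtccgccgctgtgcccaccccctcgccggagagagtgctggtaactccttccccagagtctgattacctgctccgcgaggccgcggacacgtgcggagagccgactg

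The libraries held 5440093 to 7164426 reads in genes. They were made with a QuantSeq kit, which sequences polyadenylated transcripts from their 3' end. A count therefore does not grow with transcript length, but levels of genes whose ends overlap another gene, among the 10 CDK4 and CCND1, are uncertain beside the others. Levels are in CPM, reads scaled to 1000000 reads in genes per library. ZEB2 itself was barely covered, by 9, 5 and 3 reads in the libraries lacking DOX and 20, 9 and 22 in those given DOX, and did not pass the test (log2 fold change 1.37 ± 0.57 SE, edgeR adjusted p = 0.780). Of 8 markers of colon epithelium, 1 (CDX1) was at 0 in all libraries. Their summed level was 5617 to 7053 CPM without DOX and 3671 to 4768 CPM with DOX. The 9 measured markers of blood, stromal and vessel cells summed to 5.15 to 12.2 CPM, and COL1A2 and PECAM1 were at 0. In bulk RNA, fewer cells in a given cycle phase and less RNA per cell cannot be told apart.

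The 10 genes spanned a wide range of levels. CCND1, which encodes cyclin D1, was the most abundant, with 288 ± 49.8 CPM over all 6 libraries (SD), above 94.9% of the 11732 genes that passed the filter on low counts. CDK2 followed at 142 ± 15.1 CPM, and CCND3, which encodes cyclin D3, at 109 ± 10.9 CPM, and the ranges of these 2 genes over the libraries overlapped. CDKN1B stood at 76.0 ± 13.2 CPM, apart from its neighbours. CDK6 (37.6 ± 11.7 CPM) and CCNE1 (32.7 ± 6.12 CPM) overlapped in range. CDKN1A (18.03 ± 2.004 CPM) and CDKN2C (11.1 ± 3.04 CPM) overlapped as well. CDKN2B was scarce at 2.06 ± 1.11 CPM, with 5 to 19 reads in a library. CDK4 was the lowest at 0.268 ± 0.230 CPM, with at most 4 reads.

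**Figure D1:**
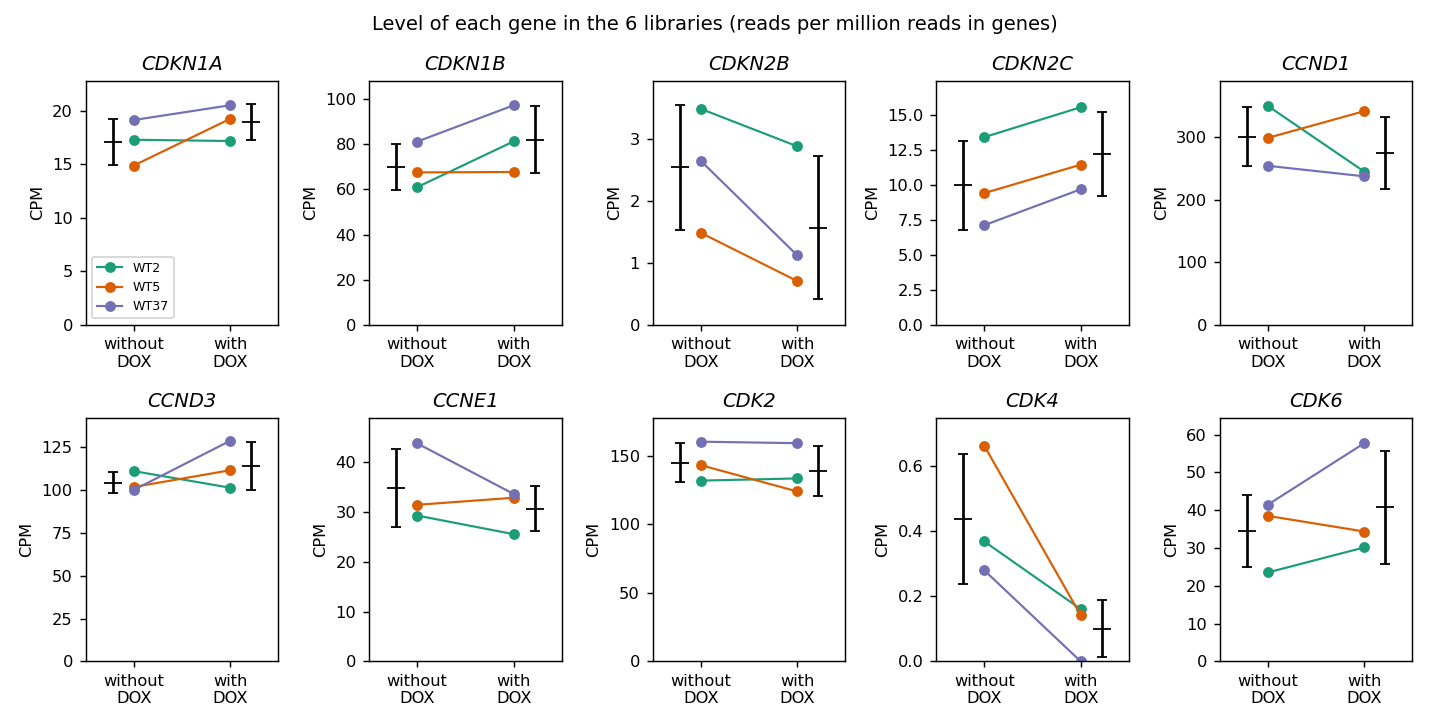
Level of the 10 genes in CPM (y axis, from 0, a scale for each gene) without and with DOX (x axis); each line joins the 2 libraries of 1 clone, and black bars are the mean and SD of the 3 libraries of a group. The groups overlap for every gene except CDK4, which has 0 to 4 reads.

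With DOX, 0 of the 9 members that passed the filter changed, and 0% of all 11732 tested genes were called (quasi-likelihood test of edgeR, adjusted p under 0.05 by Benjamini-Hochberg). At an unadjusted p under 0.05 the same fit held 0 of the 9 members and 6.04% of all genes (709). With the clone as a block, again 0 of the 9 members passed, against 1.56% of all genes (183 of 11732), and 0 of the 9 had an unadjusted p under 0.05, against 12.8% of all genes. DESeq2 also called 0 members, without and with the clone. The libraries of both groups overlapped for all 9, while 11.1% of all tested genes did not overlap, 6.55% higher and 4.56% lower with DOX. In the blocked fit, 5 of the 9 had a log2 fold change above 0 and 4 below, with a median of 0.09 beside 0.006 for all genes. Their adjusted p-values in this edgeR fit lay between 0.421 (CDKN2B) and 0.808 (CDKN1A). Values of single members below come from the fit without the block unless stated, which counts baseline differences between clones as error. CDK4 was removed by the filter, and the counts above do not cover it.

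Among the CIP/KIP inhibitors, CDKN1A, which encodes p21 (ENSG00000124762, GRCh38 chromosome 6, 36676460 to 36687339), had 17.3, 14.9 and 19.1 CPM in the libraries lacking DOX and 17.2, 19.2 and 20.5 CPM in those given DOX. The WT5 library without DOX was the lowest and the WT37 library with DOX the highest, and the groups overlapped. The log2 fold change was 0.11 (95% interval -0.27 to 0.49, edgeR adjusted p = 0.977). CDKN1B, which encodes p27 (ENSG00000111276, chromosome 12, 12715058 to 12722371), went from 61.0 to 81.3 CPM in WT2 and from 81.2 to 97.3 CPM in WT37. In WT5 it had 67.6 CPM without and 67.7 CPM with DOX. The ratio with to without DOX was 1.33 in WT2 (95% counting interval 1.16 to 1.54) and 1.198 in WT37 (1.07 to 1.34), both above 1, and 1.002 in WT5 (0.877 to 1.147). These intervals cover counting error between 2 libraries only, and the ratios leave out the TMM scaling factors of the fits. In WT37 these factors were 1.019 without and 1.075 with DOX. Scaling would lower each WT37 ratio, and in any clone a bound near 1 can cross it. Over the clones the log2 fold change of CDKN1B was 0.19 (95% interval -0.14 to 0.52, edgeR adjusted p = 0.946) without the clone as a block. With the block it was 0.19 (-0.050 to 0.43, edgeR adjusted p = 0.499), and neither fit called it.

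The INK4 inhibitors had log2 fold changes of opposite sign, and neither passed. CDKN2C, which encodes p18 (ENSG00000123080, chromosome 1, 50960745 to 50974633), had 13.4, 9.42 and 7.12 CPM in the libraries lacking DOX and 15.6, 11.5 and 9.69 CPM in those given DOX. Its value with DOX was the higher one in all 3 clones, as in 21.2% of all tested genes, and the clones kept their order in both groups. The log2 fold change was 0.26 (95% interval -0.41 to 0.94, edgeR adjusted p = 0.971). With the clone as a block it was 0.27 (-0.12 to 0.67, edgeR adjusted p = 0.564). CDKN2B, which encodes p15 (ENSG00000147883, chromosome 9, 22002903 to 22009363, minus strand), gave 19, 9 and 19 reads in the libraries lacking DOX and 18, 5 and 8 in those given DOX, or 3.49, 1.49 and 2.65 CPM against 2.89, 0.707 and 1.12 CPM. The value with DOX was the lower one in all 3 clones, as in 13.9% of all tested genes. Its log2 fold change of -0.74 had a 95% interval of -1.99 to 0.52 (edgeR adjusted p = 0.946), the widest of the 9. At this depth the counting interval, before TMM scaling, held 1 in every clone. With the clone as a block the log2 fold change of CDKN2B was -0.80 (-1.67 to 0.061, edgeR adjusted p = 0.421).

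Both D cyclins that passed the filter had ratios on either side of 1 in different clones, and neither passed the test over the clones. CCND1 (ENSG00000110092, chromosome 11, 69641087 to 69654474) had 349.6, 298.5 and 253.9 CPM in the libraries lacking DOX and 244.6, 341.2 and 237.1 CPM in those given DOX. The groups overlapped, with the highest level in WT2 lacking DOX and the lowest in WT37 given DOX. The ratio with to without DOX was 0.700 in WT2 (95% counting interval 0.654 to 0.749), 1.14 in WT5 (1.08 to 1.22) and 0.934 in WT37 (0.873 to 0.998). Counting error does not span these ratios, but each rests on 2 libraries, and the design leaves no replicate with which to test how they differ. The log2 fold change over the clones was -0.17 (95% interval -0.59 to 0.26, edgeR adjusted p = 0.969), and it was 0.040 without WT2 and -0.39 without WT5.

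CCND3 (ENSG00000112576, chromosome 6, 41934933 to 42050357, minus strand) had 111.2, 101.9 and 100.2 CPM in the libraries lacking DOX and 101.5, 111.7 and 128.9 CPM in those given DOX, and the groups overlapped. In WT37 the ratio was 1.29 (95% counting interval 1.17 to 1.42), and in WT2 and WT5 the interval, before TMM scaling, held 1. The log2 fold change was 0.08 (95% interval -0.19 to 0.36, edgeR adjusted p = 0.977), and it was -0.017 without WT37 and 0.21 without WT2. Cyclin D1 took most of the D cyclin reads everywhere. Its share of CCND1 plus CCND3 reads was 75.9%, 74.55% and 71.7% in the libraries lacking DOX and 70.7%, 75.3% and 64.8% in those given DOX. The lowest share, in WT37 with DOX, had a 95% Clopper-Pearson interval of 62.9% to 66.6%. The mean was 74.0% ± 2.13 without and 70.3% ± 5.29 with DOX (SD, n = 3 each), a difference not called by the exact permutation test, two-sided, of 3 libraries against 3 (p = 0.3, adjusted p = 0.4 over 4 such shares, smallest possible p = 0.1).

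**Figure D2:**
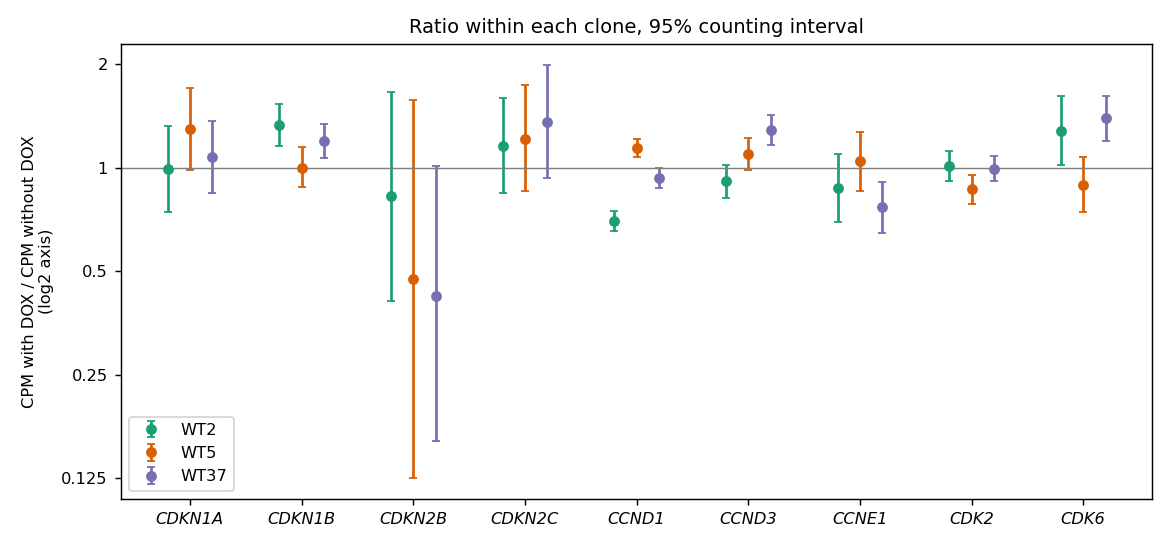
Ratio of CPM with to without DOX (y axis, log2 scale) for 9 genes (x axis) in each clone, with 95% intervals that cover counting error only. CCND1 lies below 1 in WT2 and WT37 (0.700 and 0.934) and above 1 in WT5 (1.14), and CDKN2B has the widest intervals.

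CCNE1 and CDK2 form the kinase complex that acts at the entry into S phase. CCNE1, which encodes cyclin E1 (ENSG00000105173, chromosome 19, 29811898 to 29824308), had 29.2, 31.4 and 43.7 CPM in the libraries lacking DOX and 25.5, 32.8 and 33.6 CPM in those given DOX. The WT37 library without DOX stood above the other 5, and the ratio in WT37 was 0.768 (95% counting interval 0.647 to 0.912). The log2 fold change was -0.22 (95% interval -0.61 to 0.17, edgeR adjusted p = 0.947). CDK2 (ENSG00000123374, chromosome 12, 55966769 to 55972784) lay between 123.9 and 160.2 CPM, with 131.8, 143.1 and 160.2 CPM in the libraries lacking DOX and 133.4, 123.9 and 159.1 CPM in those given DOX. The ratio with to without DOX was 0.866 in WT5 (95% counting interval 0.787 to 0.952), and in the other clones the interval held 1. Its log2 fold change of -0.10 had the narrowest 95% interval of the 9, -0.37 to 0.16 (edgeR adjusted p = 0.971). The paralog of cyclin E1, CCNE2, had 2.79 to 6.18 CPM and did not pass (log2 fold change 0.43 ± 0.29 SE, edgeR adjusted p = 0.582 with the clone as a block). In GENCODE release 29, exons on the other strand cover 0% to 100% of the last 300 bases, depending on which of its 3 coding transcripts is taken. The effect of this on its level was not tested.

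The kinases of the D cyclins could be read for CDK6 only. CDK6 (ENSG00000105810, chromosome 7, 92604921 to 92836594, minus strand) had 23.5, 38.5 and 41.5 CPM in the libraries lacking DOX and 30.2, 34.4 and 57.7 CPM in those given DOX, and the groups overlapped. The ratio was above 1 in WT2 (1.28, 95% counting interval 1.02 to 1.62) and WT37 (1.39, 1.196 to 1.62) and 0.893 in WT5 (0.743 to 1.07). The lower bound in WT2 is close to 1, and these ratios leave out the TMM scaling factors of the fits. In WT2 these factors were 0.951 without and 0.976 with DOX, and with them the WT2 interval holds 1. Over the clones the log2 fold change was 0.19 (95% interval -0.35 to 0.74, edgeR adjusted p = 0.975), and it was -0.086 without the WT37 library given DOX.

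CDK4 (ENSG00000135446, chromosome 12, 57747727 to 57756013, minus strand) had 2, 4 and 2 reads in the libraries lacking DOX and 1, 1 and 0 in those given DOX. The level that 3 reads give was 0.419 to 0.552 CPM, and the WT5 library without DOX (0.661 CPM) was the only one above it, so no fold is given. Per GENCODE release 29, all of the last 300 bases of CDK4 transcripts, in each of its 3 coding transcripts, lie under exons of TSPAN31 on the other strand, which had 90 reads in the 6 libraries together. The deposited table sets aside reads that lie in more than 1 gene, 6.85% to 7.40% of all reads in a library. Among protein-coding genes of the table, the median level was 2.36 CPM for the 438 genes whose last 300 bases were covered in this way throughout, 5.45 CPM for 950 covered in part and 11.8 CPM for 13792 not covered. Whether this overlap accounts for the low count of CDK4 was not tested. For CCND1, 78.7% of the last 300 bases lie under LTO1 on the other strand in 1 of its 2 coding transcripts and 0% in the other, and its effect on the level was not tested. For the other 8 members this share was 0%. The share of CDK4 in the reads of CDK4 plus CDK6 was 0% to 1.69%, and no comparison of the 2 kinases is drawn from it.

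Within the 2 inhibitor families, neither share passed its test. CDKN1A took 22.1%, 18.04% and 19.05% of the CDKN1A plus CDKN1B reads in the libraries lacking DOX and 17.4%, 22.1% and 17.4% in those given DOX, higher with DOX in WT5 and lower in the other clones. The two-sided exact permutation test gave p = 0.6 (adjusted p = 0.6). CDKN2B took 20.65%, 13.6% and 27.1% of the CDKN2B plus CDKN2C reads in the libraries lacking DOX and 15.65%, 5.81% and 10.4% in those given DOX, lower with DOX in all 3 clones. The mean went from 20.5% ± 6.76 to 10.6% ± 4.92 (SD, n = 3 each). The exact permutation test gave p = 0.2 (adjusted p = 0.4, smallest possible p = 0.1) and does not use the pairing by clone.

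**Figure D3:**
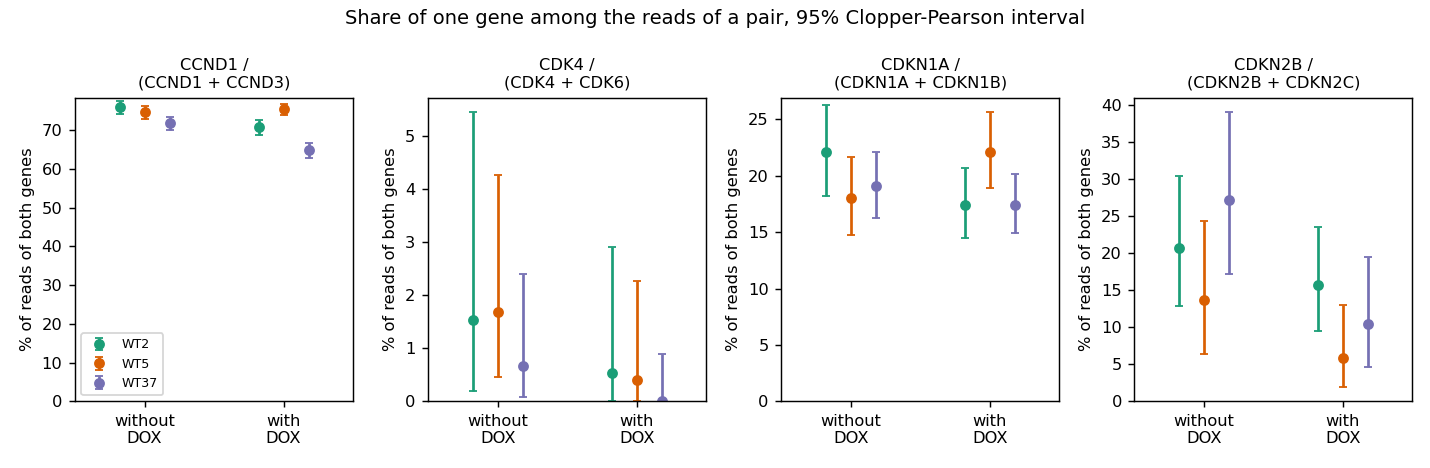
Share of the first gene among the reads of a pair (y axis, percent, from 0) in each library without and with DOX (x axis), coloured by clone, with 95% Clopper-Pearson intervals. CCND1 holds 64.8% to 75.9% of the D cyclin reads, and the share of CDKN2B is lower with DOX in each clone.

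CDK6 was higher and CDKN2C lower in clone WT37 than in WT2. An edgeR test over the 3 clones, adjusted for DOX, called 1 of the 9 members, CDK6 (adjusted p = 0.0486), against 6.4% of all tested genes. The means of the 2 libraries per clone were 26.8, 36.4 and 49.6 CPM in WT2, WT5 and WT37, and both WT37 libraries were above all others. CDK6 was 0.76 higher on the log2 scale in WT37 than in WT2 (95% interval 0.39 to 1.13, edgeR adjusted p = 0.0282), in a contrast that called 5.55% of all genes, 3.05% with the higher level in WT37. CDKN2C, an inhibitor of this kinase, had the reverse order, with 14.5, 10.4 and 8.40 CPM in WT2, WT5 and WT37. It was lower in WT37 than in WT2 by a log2 difference of -0.91 (95% interval -1.39 to -0.43, edgeR adjusted p = 0.0367), while its test over all 3 clones did not pass (adjusted p = 0.0623). In DESeq2 neither contrast passed (adjusted p = 0.0660 for CDK6 and 0.208 for CDKN2C), nor did either in edgeR without the DOX covariate (0.0967 and 0.112). The test over the 3 clones lost CDK6 with limma-voom (adjusted p = 0.0568), with only genes of a mean CPM of at least 5 (0.0592), with DESeq2 (0.143) and without the DOX covariate (0.155). With a clone left out, the edgeR test compares only the other 2. CDK6 did not pass in it without WT2 (adjusted p = 0.305) or without WT37 (0.502).

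In the same edgeR fit, none of the other 7 tested members passed over the clones or in a contrast of 2 clones. CCND1 was lower in WT37 than in WT5 by a log2 difference of -0.47 (95% interval -0.80 to -0.14), with 246 against 320 CPM, and did not pass (edgeR adjusted p = 0.0920). CCND1 passed over the 3 clones with no filter (edgeR adjusted p = 0.0107), and so did CDKN2C (0.0127). Without WT5, where the test compares only WT37 with WT2, both passed as well (edgeR adjusted p = 0.0308 and 0.0143). CDKN2B had the largest differences in value of the 9, -1.62 for WT5 against WT2 (95% interval -2.71 to -0.53) and -0.92 for WT37 against WT2, with few reads (edgeR adjusted p = 0.213 and 0.252). CCNE1 had 27.4, 32.1 and 38.6 CPM in WT2, WT5 and WT37 (adjusted p = 0.322 over the clones, edgeR). CDKN1A, CCND3 and CDK2 had adjusted p-values of 0.867, 0.978 and 0.490 and CDKN1B of 0.274 in the same test. The contrast of WT5 with WT2 called 0 of the 9 members and 0.972% of all genes (0.639% higher in WT5), and that of WT37 with WT5 called 0 of the 9 and 5.8% of all genes (3.08% higher in WT37). Reads with several mapping places made up 11.8% and 12.01% of the WT37 libraries and 14.6% to 16.0% of the others, and the part of this in the clone differences was not tested.

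**Figure D4:**
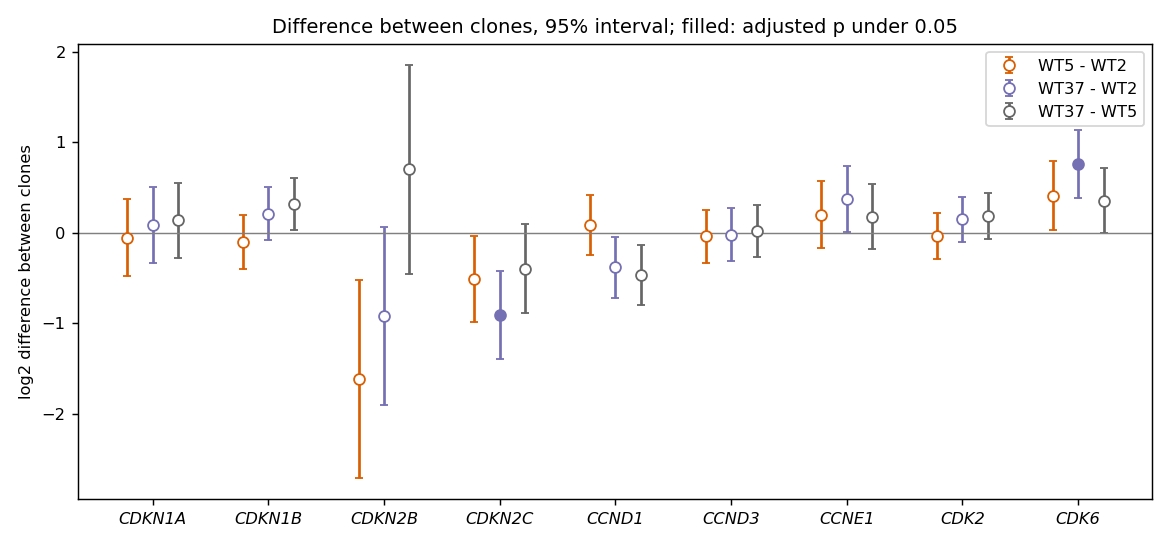
Difference in log2 level (y axis) between each pair of clones for 9 genes (x axis), from the edgeR fit with DOX as a covariate, with 95% intervals. Filled points have an adjusted p under 0.05 and are CDK6 and CDKN2C for WT37 against WT2 (0.76 and -0.91).

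The rest of the pathway gave few calls with DOX. Of the list of other CDK inhibitors and G1 cyclins, which also holds CDKN3, a phosphatase, and the cyclin gene CCNA2, 5 of 8 were tested. All 5 had a log2 fold change above 0 in the blocked fit (median 0.21), beside 6000 of all 11732 genes, and 0 passed. CDKN3 (0.0046) and CCNA2 (0.036) were near 0. CDKN2D, which encodes the INK4 protein p19, had 26.2 ± 3.56 CPM without and 31.3 ± 6.79 CPM with DOX (SD, n = 3 each, blocked edgeR adjusted p = 0.625). CDKN2A and CCND2 had at most 6 and 8 reads in a library and were filtered. In the RB and E2F family, 13 genes were tested and 0 passed (9 above 0, median 0.05). E2F1, a driver of S-phase genes, had 67.65, 62.3 and 61.4 CPM in the libraries lacking DOX and 68.01, 100.8 and 79.1 CPM in those given DOX. Its groups did not overlap, as in 6.55% of all tested genes, which were higher with DOX. E2F1 did not pass (log2 fold change 0.32 ± 0.13 SE, blocked edgeR adjusted p = 0.324). Of 30 E2F targets and DNA replication genes 23 had a log2 fold change below 0, with a median of -0.10, and 0 passed. Of 18 genes of CDK activation and of cyclin or inhibitor turnover 14 were below 0 (median -0.07), and 10 of 19 G2/M genes were above 0 (median 0.01), with 0 passing in both lists. Among 21 p53 targets, the class that CDKN1A belongs to, 12 were above 0 (median 0.12) and 0 passed.

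Genes that respond to the mitogen kinase ERK were the 1 list of the cell cycle lists with calls. In the blocked fit 2 of 14 fell and 0 rose, where 0.835% of all genes (98 of 11732) fell and 0.725% (85) rose. The list was chosen with earlier results of these data known, so its share describes these genes and is not independent evidence. A log2 fold change below 0 was found for 11 of 14 (median -0.12), beside 5732 of all 11732 genes. The 3 above 0 were DUSP4 (0.24), ETV5 (0.088) and MYC (0.00066). DUSP5, a phosphatase that acts on ERK, went from 45.4, 37.2 and 41.3 CPM to 18.4, 22.5 and 21.8 CPM. Its groups did not overlap, as in 4.56% of all tested genes, which were lower with DOX. It fell by 1.01 on the log2 scale (SE 0.14, blocked edgeR adjusted p = 0.00762). PHLDA1, an early response gene whose groups did not overlap either, fell by 0.54 (SE 0.10, adjusted p = 0.0200, same fit), from 246 ± 43.8 to 173 ± 16.2 CPM (SD, n = 3 each). Without the block neither passed (adjusted p = 0.166 and 0.558), and in the blocked fit both calls were lost without WT2 (0.0675 and 0.210) and without WT37 (0.0542 and 0.295). In WT5, where CCND1 was higher with DOX, the log2 ratios of DUSP5 and PHLDA1 were -0.72 and -0.35. Whether ERK signalling changed, or is tied to CCND1 here, was not tested. Of 11 cytostatic TGF-beta and FOXO genes 7 were above 0 (median 0.26) and 0 passed. CCNG2, an unconventional cyclin of resting cells, did not pass (log2 fold change 0.93 ± 0.25 SE, edgeR adjusted p = 0.104 with the block), with 12.03 against 4.41 CPM in WT2, 6.36 against 6.28 in WT5 and 31.2 against 12.8 in WT37. Without WT5 it passed in the blocked fit (log2 fold change 1.27, adjusted p = 0.00282). The markers of colon epithelium moved with DOX in the same libraries, with 3 of 7 tested lower and 1 higher in the blocked fit (0.835% and 0.725% of all genes), and their part in these values was not tested.

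**Figure D5:**
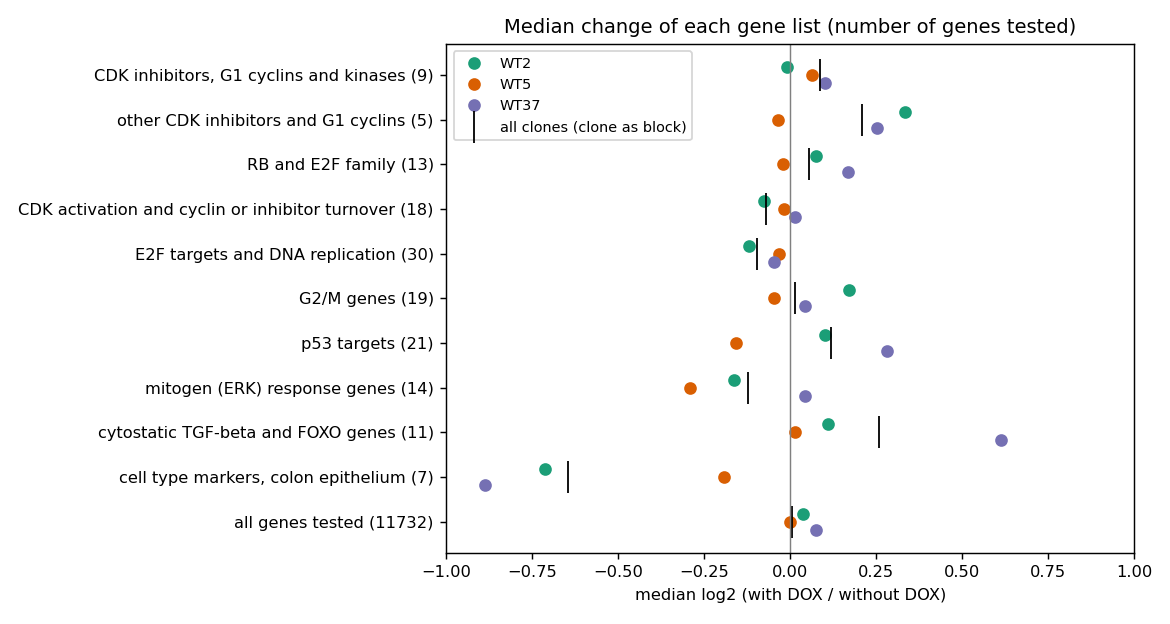
Median log2 ratio of level with to without DOX (x axis) for each gene list (y axis, number of genes tested in parentheses); dots are the clones and black ticks the blocked edgeR fit. The cell cycle lists have medians between -0.12 and 0.26 in the blocked fit, beside 0.006 for all genes and -0.65 for the markers of colon epithelium.

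Over the 3 clones, edgeR's test called 9 of the 131 tested genes of these pathway lists, or 6.87%, a share near the 6.4% of all genes. It also called 2 markers of colon epithelium, EPCAM and KRT18 (adjusted p = 0.0276 and 0.0425), both lower in WT37 than in WT2 (log2 differences -0.65 and -0.62), and their part in the clone differences was not tested. CDKN1C, which encodes the third CIP/KIP protein p57, had 32.5 and 52.1 CPM in WT2, 35.2 and 34.4 CPM in WT5 and 65.7 and 78.4 CPM in WT37 (without and with DOX, adjusted p = 0.0115). It was 0.97 higher on the log2 scale in WT37 than in WT5 and 0.66 higher than in WT2. CDKN3, a phosphatase that acts on CDKs, was lower in WT37 than in WT2 by a log2 difference of -0.80 (adjusted p over the clones 0.00806). MYBL2 and FEN1, which serve S-phase transcription and DNA replication, were lower in WT37 than in WT5, with log2 differences of -0.93 and -0.54. The p53 target BBC3 was higher in WT37 than in WT2 by 0.93, and CCNG2 by 1.29. E2F2 was 0.82 higher in WT5 than in WT2, and E2F6 (0.78) passed over the 3 clones but not in that contrast (adjusted p = 0.0871). EGR1, an immediate early gene, was lower in WT37 than in WT5 (-0.77). Of these 9 genes and CDK6, 7 passed also with DESeq2 and 8 with limma-voom, and 2 (CDKN3 and MYBL2) without the DOX covariate.

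The members with the widest spread over the libraries were CDKN2B, CDKN2C and CDK6, with SDs of 0.776, 0.428 and 0.377 in log2 CPM. The gene whose pattern over the 6 libraries was most like that of CDK6 was ZSCAN29 (Pearson r = 0.997), followed by CELSR2 (0.995) and PHKG2 (0.993). For CDKN2C these were BOLA3 (0.995), SQSTM1 (0.987) and COG4 (0.986), and for CDKN2B they were GHITM (0.9999), ASB9 (0.990) and ABHD6 (0.983). The 6 points are 3 pairs of libraries that share a clone, and among 11732 genes 54, 56 and 21 had an r over 0.95 with CDK6, CDKN2C and CDKN2B, so these matches describe the libraries only.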

How the data were processed

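Messenger RNA was measured in 6 libraries, 3 clones without and with DOX. Per the labels' protocols, RNA came from a Nucleospin RNA Plus kit and libraries from Lexogen's QuantSeq FWD kit for transcript 3' ends. The deposited table holds raw counts of reads per Ensembl gene. The submitters' processing notes name the build GRCh38 and DESeq2. For the aligner, counter, annotation and strand setting the sources used here give nothing. The 4 rows of unassigned reads (4.29% to 5.25% unmapped, 11.8% to 16.0% mapped to several places, 8.72% to 11.7% outside genes, 6.85% to 7.40% ambiguous) were left out of library sizes and tests. Since the strand setting is unknown, it is also unknown whether reads of genes that overlap on opposite strands were told apart.

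Counts were tested with edgeR 4.0.16 in R 4.3.3 (quasi-likelihood, TMM, filterByExpr, 11732 genes kept, Benjamini-Hochberg over all of them, threshold 0.05), without a clone term (used for the members unless stated) and with the clone as a block. The numbers pair the samples, since libraries with the same number are the same clone, and their deviations from the group means correlated at r = 0.489, 0.284 and 0.530 for WT2, WT5 and WT37 across genes. Clones were compared in a fit with a DOX term. SEs are the size of a change over the square root of its F. DESeq2 1.42.0, limma-voom (limma 3.58.1), other filters and scaling and left-out libraries were the alternatives. Tests were checked on simulated counts with the same dispersion for every gene and, for DOX, no differences between clones. These settings are simpler than the data, so the check does not cover the spread between clones seen here. List medians within a clone add a pseudocount of 0.5 to counts. Ratios within a clone carry exact binomial intervals at 95%, which cover counting error only. CPM, these ratios and the list medians within a clone use read totals without the TMM factors (0.951 to 1.075) that scale the fits. The design text takes the clones as biological replicates, each with 1 library per condition. Libraries differed within a group by 6.11 to 18.3 times sampling noise (chi-square over its degrees of freedom). In the fit without a clone term, p-values are set against this spread. In the blocked and clone fits they are set against what the clone and DOX terms leave, the spread of the DOX difference among clones. In the clone fit the 2 libraries of a clone serve as its replicates. Coordinates are those of GENCODE 29 on GRCh38. Symbols were looked up by Ensembl identifier. Named are the 10 members, listed genes that passed a test or share a complex with a member or have the smallest p-values of their list, and for the 3 members of widest spread the 3 genes of highest Pearson r. CCNA2, DUSP4, ETV5 and MYC are named as well, because they moved little or against the other genes of their lists. The members and gene lists were chosen with earlier results of these data known.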

Additional observations from a re-analysis of the deposited data

Results flagged for a closer look

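CCND1 is singled out because its difference with DOX had opposite directions in different clones beyond counting error. With DOX the level was 0.700 times that without DOX in WT2, 0.934 times in WT37 and 1.14 times in WT5. Each value compares 1 library with 1 other, and the difference between the clones was not tested. The markers of colon epithelium also changed least in WT5, with a median log2 ratio of -0.19, beside -0.71 in WT2 and -0.89 in WT37. Whether the weaker marker change of WT5 bears on its CCND1 ratio was not tested.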

How the results depend on the processing

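Of the 9 members, 0 were called with DOX under any of the 25 alternatives run. Over all genes 0 were called with DOX without the clone, 183 with the replicate block, 57 with DESeq2 and 245 with no filter, and leaving out a clone or a library gave 0 to 31 (31 without the WT5 library given DOX). With the replicate block, size factors gave 193, no filter 562, the filter at a mean CPM of 5 gave 120, DESeq2 133, limma-voom 185 and robust dispersion 152, and leaving out a clone gave 35 without WT2, 751 without WT5 and 21 without WT37. Over the clones 751 genes were called, against 1801 with no filter, 441 with DESeq2, 147 without the DOX covariate and 129 (without WT37) to 1808 (without WT5) with a clone left out. The count of members called between clones went from 1 to 3 with no filter, to 0 with the filter at 5 CPM, with DESeq2, with limma-voom and without the covariate, and to 0 to 3 with a clone left out. Both counts of 3 were CCND1, CDKN2C and CDK6 (no filter, and without WT5). The log2 fold change with DOX changed sign when clones or libraries were left out for CCND1 (-0.39 to 0.040, and 0.011 without WT2 with the block), CCND3 (-0.017 to 0.21, and -0.015 without WT37 with the block), CDK6 (-0.086 to 0.37) and CDKN1A (-0.0080 to 0.19, and -0.0059 without WT5 with the block). The share of CDKN1A in its pair changed by -0.738 percentage points, and by -3.15 to 1.21 with a clone left out. Pairing by clone changed no call of a member. Robust dispersion was added as an alternative after seeing the data. The cause was not tested. Depth limits CDKN2B and CDK4, with at most 19 and 4 reads.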
